A study of Mus musculus with 2 samples.

Results

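The genes described here are 41 mouse genes of endoplasmic reticulum (ER) stress and secretory protein folding. They were taken as a fixed list of gene symbols, chosen with earlier results of these data known. Each was looked up by symbol among the 36870 gene names on the array. All 41 were on the array, and by their brightest probe all 41 were well above background on both arrays. They were divided by known role into 8 sensors and transcription factors of the unfolded protein response, 11 ER chaperones and co-chaperones, 4 protein disulfide isomerases, 8 genes of ER-associated degradation, 7 genes of the translocon and its associated TRAP complex, and 3 targets of the transcription factors ATF4 and CHOP. The samples were epithelial cells of the submandibular gland, a major salivary gland, taken from female C57BL/6 mice (substrain C57BL/6N in the methods of the study) with magnetic beads against the surface protein EpCAM. The young group was 1 mouse of 9 weeks and the aged group was 1 mouse of 24 months, each measured on 1 single-colour (Cy3) Agilent mouse gene expression array. The methods of the study name a commercial supplier for young mice and an institute's own animal facility for aged mice, so the origin of the mice and their age cannot be told apart. Neither group carried a transgene or received a treatment according to the labels.

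Proteins bound for secretion enter the ER through the SEC61 translocon, fold there with the help of chaperones and disulfide isomerases, and are returned to the cytosol for destruction by ER-associated degradation when folding fails. When unfolded proteins build up, 3 sensors in the ER membrane start the unfolded protein response: IRE1 (the product of Ern1) splices the mRNA of Xbp1, PERK (Eif2ak3) phosphorylates a translation initiation factor and so favours translation of Atf4, and ATF6 is cleaved into a transcription factor. Salivary acinar cells secrete large amounts of protein, and such cells keep this folding machinery at a high level without being under acute stress. The array measures mRNA abundance, so splicing of Xbp1, phosphorylation of PERK and cleavage of ATF6 were not measured.

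Each level below is the log2 of the processed spot signal relative to the 75th percentile of the same array, and each difference is the aged level minus the young level on that log2 scale. The error given with a difference comes from the error model of the scanner software for the spots of both arrays; it was between 0.20 and 0.21 for the brightest probe of each of the 41 genes. It covers the measurement of a spot and leaves out the spread between mice, which 1 mouse per age cannot show. No test was therefore made, and no p-value is given. Genes were counted as higher or lower at fixed folds of 1.5 and 2. The array as a whole gave 21284 genes well above background on at least 1 array, 18693 of them on both, with 53.4% of probes well above background in young cells and 48.5% in aged cells.

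The folding genes were, as a set, higher on the aged array by a modest amount, and the sensors and transcription factors were not. Of the 41 genes, 36 had a difference above 0, against 55.4% of all 21284 genes. The median difference of the 41 genes was 0.54, with an interquartile range of 0.30 to 0.75, while the median over all genes was 0.06, with an interquartile range of -0.26 to 0.33. Aged cells had a level at least 1.5-fold higher for 17 of the 41 (41.5%), against 10.7% of all genes, and none of the 41 was 1.5-fold lower, against 10.3% of all genes. Only 2 of the 41, Creld2 and Chac1, reached 2-fold higher, against 2.53% of all genes, and none was 2-fold lower, against 5.14%. Counted by the error model, 24 of the 41 were higher by over 2 errors, against 17.4% of the 18693 genes measured on both arrays. None was lower by over 2 errors, against 10.5%, and 17 lay within 2 errors. For these 41 genes the error is nearly all a fixed 10% of each signal, so this count is in effect a further fold threshold.

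**Figure D1:**
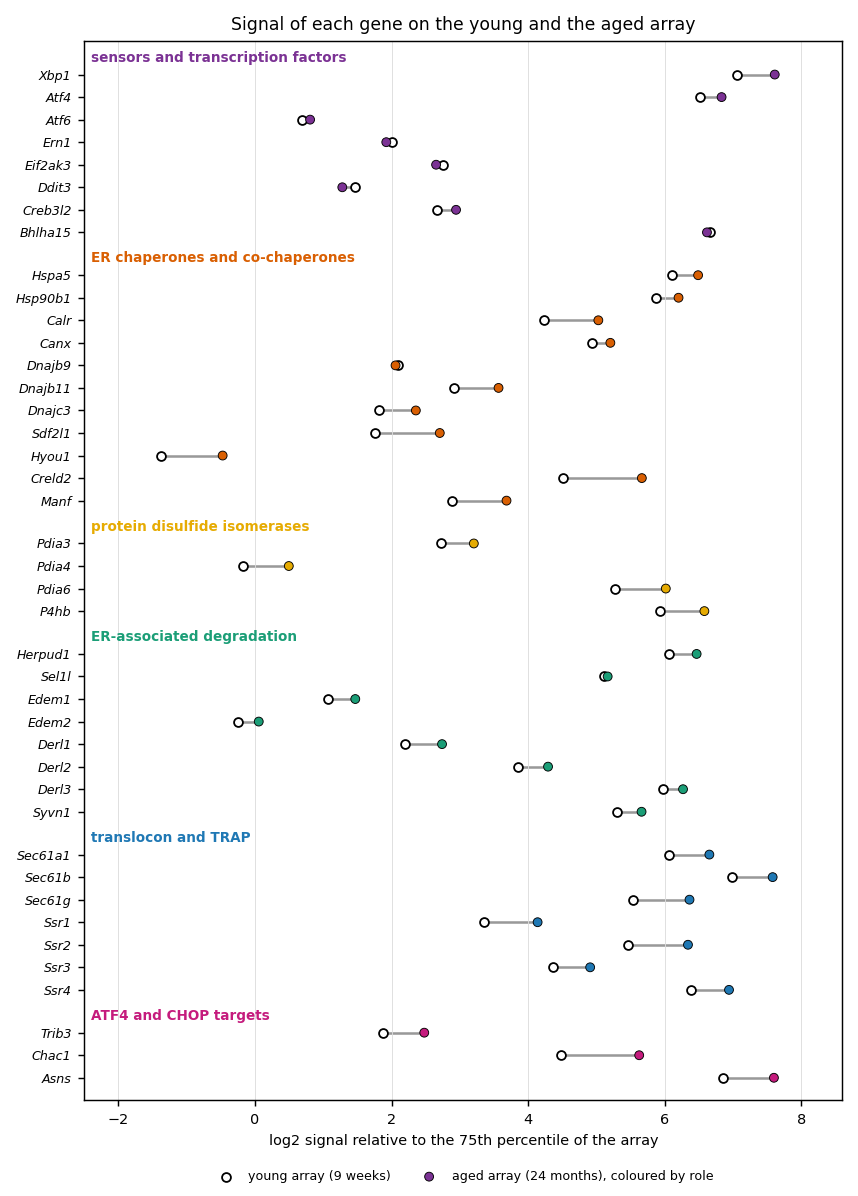
Log2 signal of the 41 genes relative to the 75th percentile of each array (x axis), with the young array as open circles and the aged array as circles coloured by role, 1 array per age and no error bars. Creld2 moved from 4.51 to 5.66 and Chac1 from 4.48 to 5.63, while Ern1, Eif2ak3, Ddit3, Bhlha15 and Dnajb9 lay slightly to the left on the aged array; positions of different genes are not to be ranked, since probes differ.

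These differences are relative to the rest of the array. The 75th percentile was a signal of 256 in young and 198 in aged cells, a ratio of 0.37 on the log2 scale, so a gene with equal unscaled signals on both arrays has a difference of 0.37. Before scaling, 27 of the 41 genes had the higher signal in aged cells and 14 in young cells, with a median unscaled log2 difference of 0.17. The same unscaled count over all genes is not given here. Bright genes were higher on the aged array in general: over all genes, the median difference went from -0.18 in the dimmest quartile of signal through -0.03 and 0.06 to 0.24 in the brightest. The brightest quartile held 34 of the 41 genes, with a median difference of 0.55, and 15 of the 34 passed 1.5-fold higher, against 15.3% of all genes in that quartile. When the relation between signal and difference was removed by quantile normalization or by a loess curve on the mean signal, the median of the 41 genes was 0.20 and 0.25, and 6 and 5 of them were at least 1.5-fold higher, against 8.80% and 8.23% of all genes, with none at 2-fold. The part of this relation with signal in the result was not tested further.

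**Figure D2:**
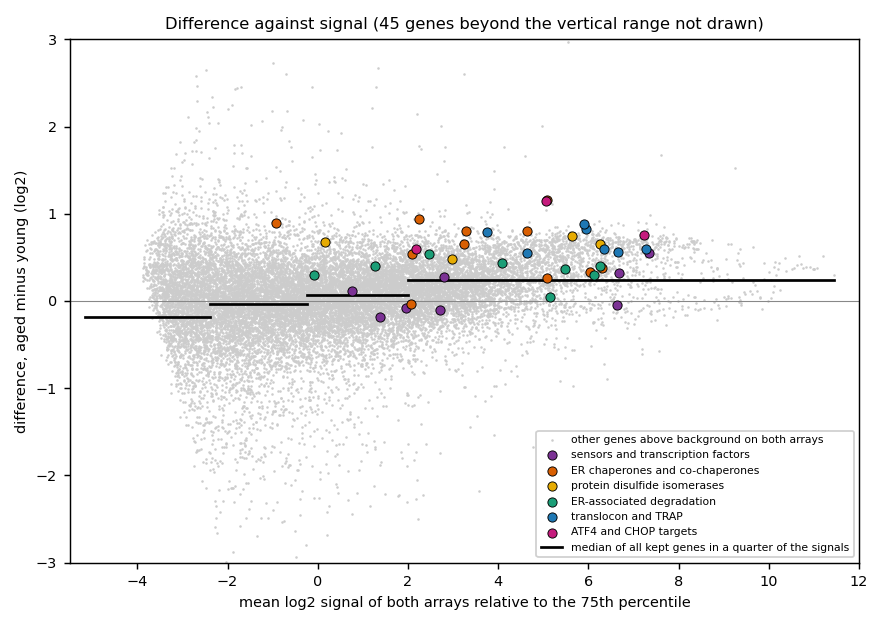
Difference between the ages (aged minus young, log2, y axis) against the mean log2 signal of both arrays (x axis) for 18648 genes measured on both arrays in grey, with the 41 genes coloured by role and black lines at the median of all genes in each quartile of signal; 45 genes lie beyond the vertical range. The black lines climb from -0.18 to 0.24, and 34 of the 41 genes lie in the brightest quartile.

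Over the 7 ways of scaling the arrays that were compared, the median of the 41 genes was between 0.20 and 0.72. The difference was above 0 under all 7 for 27 genes and below 0 under all 7 for 1 gene, Ddit3, and it changed sign for the other 13. Creld2, Chac1, Sdf2l1 and Hyou1 were at least 1.5-fold higher under all 7, and none of the 41 genes was 2-fold higher under all 7. The shares of all genes for these joint counts are not given here. Scaled to the median of each array, 40 of the 41 were above 0, against 69.8% of all genes. With quantile normalization 28 were above 0, against 51.5%, with loess 30, against 49.0%, and with spike-in controls 34, against 31.3%.

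The order of the role groups was steadier than their levels. The medians were 0.75 for the ATF4 and CHOP targets, 0.66 for the disulfide isomerases, 0.65 for the chaperones, 0.60 for the translocon and TRAP genes, 0.38 for the degradation genes and 0.04 for the sensors and transcription factors. The sensors and transcription factors had the lowest median of these groups, and the degradation genes the next lowest, under each of the 7 scalings. Whether these groups differ from each other beyond the spread between mice was not tested, since there is 1 mouse per age.

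**Figure D3:**
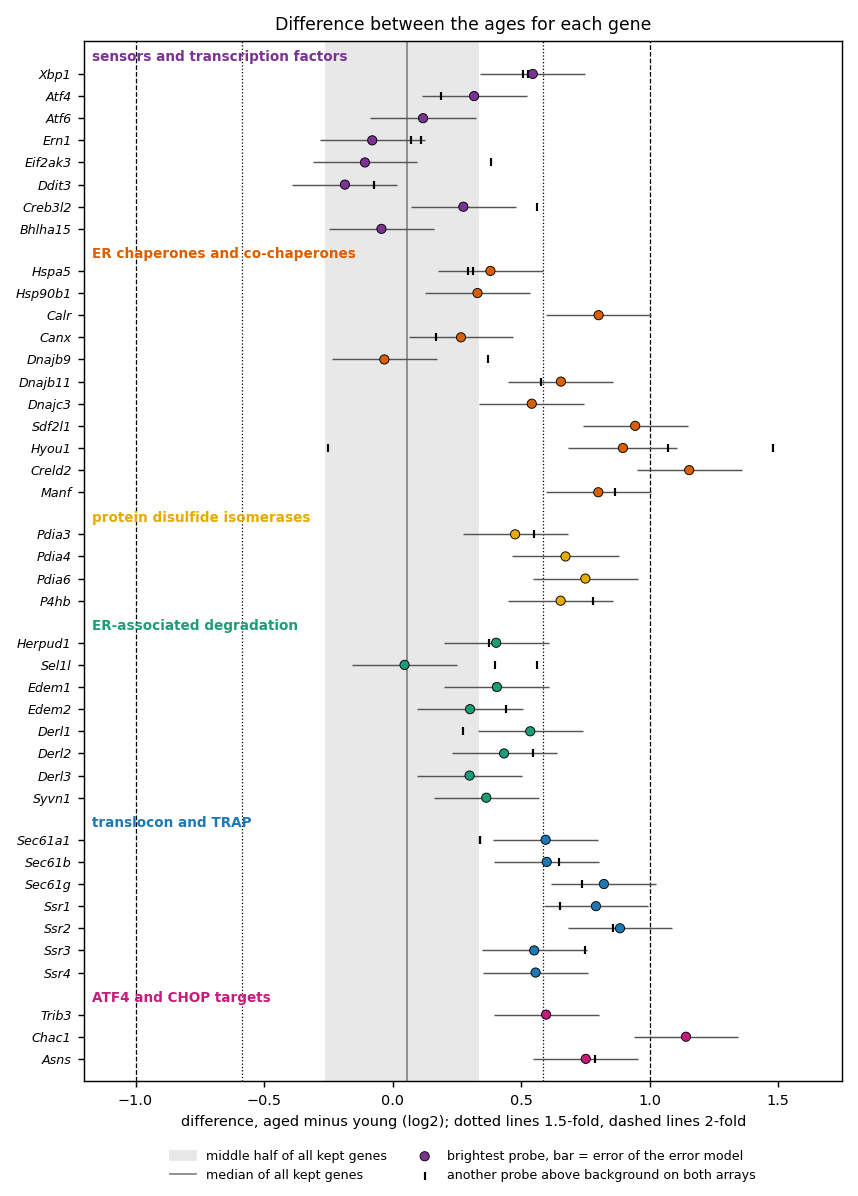
Difference between the ages (aged minus young, log2, x axis) for the brightest probe of each of the 41 genes, coloured by role, with bars of 1 error of the scanner software's error model and black ticks for further probes of the same gene that were above background on both arrays. The grey band is the interquartile range of all genes, -0.26 to 0.33; most chaperones, isomerases and translocon genes lie to its right, and most sensors and transcription factors within it.

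The sensors and transcription factors showed the smallest differences. Xbp1, the transcription factor activated by IRE1, had a level of 7.06 in young and 7.61 in aged cells, a difference of 0.55 that its 3 probes gave between 0.51 and 0.55. It was the highest of this group and fell short of 1.5-fold. Atf4, the factor made when PERK is active, had levels of 6.51 and 6.83, a difference of 0.32, and Creb3l2, a membrane-bound factor of secretory cells, had levels of 2.67 and 2.94, a difference of 0.28. The 3 sensors themselves lay close to 0. Ern1 had a difference of -0.08, with 2 further probes at 0.07 and 0.11. Eif2ak3 had a difference of -0.11 and a second probe at 0.38, and Atf6 had a difference of 0.12. For none of the sensors did the probes measured on both arrays place a gene 1.5-fold higher or lower.

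Ddit3, which encodes the stress factor CHOP, had levels of 1.46 in young and 1.28 in aged cells. Its difference of -0.19 was the lowest of the 41 and less than its error of 0.20. Bhlha15, which encodes MIST1, a factor of mature secretory acinar cells, had levels of 6.66 and 6.62, a difference of -0.04. Of the 8 genes in this group, 4 were above 0 and 4 below, and none was 1.5-fold away from equal.

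The chaperones and co-chaperones were more often higher. Creld2, an ER-resident protein induced by ER stress, had a level of 4.51 in young and 5.66 in aged cells, from unscaled signals of 5837 and 10036. Its difference of 1.15 (error 0.20), a 2.23-fold higher level, rests on 1 probe, was the largest of the 41 and lay between 0.79 and 1.33 over the scalings. Sdf2l1, a stress-induced partner of ER DnaJ proteins, had levels of 1.76 and 2.71, a difference of 0.94. Calr, the calcium-binding lectin chaperone calreticulin, had levels of 4.23 and 5.03, and Manf, a small stress-induced protein kept in and secreted from the ER, had levels of 2.88 and 3.68, each a difference of 0.80.

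Hyou1, a nucleotide exchange factor for the central chaperone BiP, had levels of -1.37 and -0.47, a difference of 0.90, from weak unscaled signals of 99.2 and 143. Its 4 probes did not go together: 3 were higher in aged cells, by 0.90, 1.07 and 1.48, and the fourth, which the array annotates to another transcript, was at -0.25. Dnajb11, a co-chaperone that delivers clients to BiP, had a difference of 0.65, and Dnajc3, another co-chaperone of BiP, had a difference of 0.54.

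Hspa5, Hsp90b1 and Canx had smaller differences than the chaperones above. Hspa5, which encodes BiP itself, had levels of 6.11 and 6.49, a difference of 0.38, with 2 further probes at 0.29 and 0.31. Its unscaled signals were nearly equal, 17659 in young and 17763 in aged cells. Hsp90b1, the ER form of HSP90, had a difference of 0.33, and Canx, the membrane-bound lectin chaperone calnexin, had a difference of 0.27. Each of these 3 went below 0 under at least 1 scaling, the lowest values being -0.06, -0.14 and -0.09. Dnajb9, a co-chaperone that holds IRE1 inactive, had levels of 2.09 and 2.06, a difference of -0.03, with a second probe at 0.37. Of the 11 genes in the group, 10 were above 0, 6 were at least 1.5-fold higher and 1 was at least 2-fold higher.

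The ER stress response element (ERSE), bound by ATF6 with the general factor NF-Y, was looked for in the promoters of the 41 genes, because the chaperones that carry it are the classical readout of the ATF6 branch. RefSeq promoters on the GRCm38.p6 assembly, from 250 bases before to 50 bases after the start of the gene, matched 35 of the 41 genes by symbol (36 promoters, Derl2 having 2). Atf6, Derl1, Hyou1, Manf, Sec61a1 and Ssr2 had no entry. On either strand, CCAAT followed by any 9 bases and CCACG was found in the promoters of 9 of the 35 genes (25.7%) and in 29 of the 17492 protein-coding genes with a promoter (0.166%). The element was defined in promoters of such genes, and the 9 are among the 29. Each site is printed below in the orientation of the element, with 5 flanking bases on each side and the fixed letters in capitals, and Hsp90b1 has 2 sites.
Calr, chr8:84847070-84847098: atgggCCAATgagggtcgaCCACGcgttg
Canx, chr11:50325795-50325823: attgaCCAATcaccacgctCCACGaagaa
Creld2, chr15:88819515-88819543: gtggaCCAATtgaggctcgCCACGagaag
Derl3, chr10:75893237-75893265: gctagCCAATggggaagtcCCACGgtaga
Dnajc3, chr14:118937822-118937850: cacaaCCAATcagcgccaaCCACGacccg
Hsp90b1, chr10:86705633-86705661: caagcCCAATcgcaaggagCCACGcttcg
Hsp90b1, chr10:86705528-86705556: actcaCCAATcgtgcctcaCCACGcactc
Hspa5, chr2:34772020-34772048: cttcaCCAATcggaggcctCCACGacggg
Pdia6, chr12:17266486-17266514: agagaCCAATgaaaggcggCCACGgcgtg
Syvn1, chr19:6046527-6046555: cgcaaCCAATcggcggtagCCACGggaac
The related element ERSE-II, ATTGG followed by any base and CCACG, was found in 2 of the 35 genes (5.71%) and 11 of the 17492 (0.0629%). It overlaps with no ERSE match here, and its letters are again in capitals.
Dnajb11, chr16:22857847-22857867: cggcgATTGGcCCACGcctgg
Herpud1, chr8:94386372-94386392: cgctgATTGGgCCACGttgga
The 8 letters TGACGTGG, the core of the element bound by XBP1 (UPRE), were in none of the 35 promoters and in 144 of the 17492 genes (0.823%).

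The genes with these letters did not share a size of difference. The 9 genes with an ERSE had differences between 0.27 (Canx) and 1.15 (Creld2), with a median of 0.38, and the 26 genes without one had a median of 0.51. Hspa5 and Creld2 both hold the full element, 65 and 126 bases before the start, with differences of 0.38 and 1.15. A match to the letters is a description of the sequence and not evidence of a bound site. The promoter of Creld2 is printed whole, since it belongs to the gene with the largest difference; capitals mark the element, which here reads on the strand opposite to the gene.
Creld2 promoter, chr15:88819396-88819695: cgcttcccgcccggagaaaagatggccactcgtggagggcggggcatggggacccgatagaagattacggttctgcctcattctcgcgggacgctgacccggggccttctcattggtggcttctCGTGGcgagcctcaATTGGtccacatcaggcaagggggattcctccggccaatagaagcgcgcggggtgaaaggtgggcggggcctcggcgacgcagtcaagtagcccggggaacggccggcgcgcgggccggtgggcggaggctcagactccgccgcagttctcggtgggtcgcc

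All 4 protein disulfide isomerases, enzymes that form and rearrange disulfide bonds in new proteins, were higher on the aged array. Pdia6 had levels of 5.26 and 6.01, a difference of 0.75. Pdia4 had levels of -0.18 and 0.50, a difference of 0.67. P4hb, the founding member of the family and also a subunit of collagen prolyl hydroxylase, had levels of 5.93 and 6.58, a difference of 0.65, with a second probe at 0.78. Pdia3, which works with calnexin and calreticulin on glycoproteins, had levels of 2.73 and 3.20, a difference of 0.48. All but Pdia3 passed 1.5-fold, and the group median was 0.32 under quantile normalization, with 1 of the 4 at 1.5-fold or more.

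The degradation genes were higher by less, and none of the 8 reached 1.5-fold. The largest difference was that of Derl1, 0.54, followed by Derl2 at 0.43 and Derl3 at 0.30; these derlins help to move misfolded proteins out of the ER. Edem1 and Edem2, lectin-like proteins that mark glycoproteins for removal, had differences of 0.41 and 0.30. Herpud1, a scaffold of the degradation complex, had levels of 6.06 and 6.47, a difference of 0.40. Syvn1, the ubiquitin ligase HRD1, had a difference of 0.36. Its adaptor Sel1l had levels of 5.12 and 5.16, a difference of 0.05, while 2 further probes of Sel1l gave 0.40 and 0.56. All 8 were above 0, but Herpud1, Sel1l, Derl3 and Syvn1 went below 0 under at least 1 scaling, and the group median was 0.059 under quantile normalization and 0.091 under loess.

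The translocon and TRAP genes all lay between 0.55 and 0.88. Sec61a1, Sec61b and Sec61g encode the subunits of the protein channel of the ER membrane, and Ssr1 to Ssr4 encode the TRAP complex that assists it. Sec61g had levels of 5.54 and 6.36, a difference of 0.82. Its probe was spotted 10 times on each array, and the differences of single spots were between 0.76 and 0.88 with an SD of 0.034, which measures the spread of spots and not of mice. Sec61a1 and Sec61b both had a difference of 0.60. Ssr2 had levels of 5.45 and 6.34, a difference of 0.88, and Ssr1 had levels of 3.35 and 4.14, a difference of 0.79. Ssr3 and Ssr4 had differences of 0.55 and 0.56. All 7 were above 0 under every one of the 7 scalings and 5 were at least 1.5-fold higher with the 75th percentile, but none was at least 1.5-fold higher under quantile normalization or loess.

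The targets of ATF4 and CHOP gave the highest group median. Chac1, an enzyme that degrades glutathione, had a level of 4.48 in young and 5.63 in aged cells, from unscaled signals of 5733 and 9771. Its difference of 1.14 (error 0.20), a 2.21-fold higher level, rests on 1 probe and lay between 0.77 and 1.32 over the scalings. Asns, asparagine synthetase, had levels of 6.85 and 7.60, a difference of 0.75 with a second probe at 0.79. Trib3, a pseudokinase that feeds back on ATF4, had levels of 1.88 and 2.48, a difference of 0.60. All 3 passed 1.5-fold on the aged array, where the mRNA of the factors themselves had differences of 0.32 (Atf4) and -0.19 (Ddit3).

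ATF4 binds composite CEBP-ATF elements (CARE), written here as TGATG, any base and AA. On either strand these letters were in 4 of the 35 promoters of the gene set (11.4%) and in 723 of the 17492 protein-coding genes (4.13%), so they are far commoner than the ER stress elements. They were present in all 3 targets of this group and in Herpud1, which also holds ERSE-II, and no match overlapped a match to another element. The 4 genes had a median difference of 0.67, and the 31 others with a promoter had a median of 0.43. Since 3 of the 4 are the whole ATF4 and CHOP target group, this contrast largely repeats that group's values. The sites are shown in the orientation of the element with 5 flanking bases on each side and the fixed letters in capitals.
Asns, chr6:7693220-7693237: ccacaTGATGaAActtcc
Chac1, chr2:119351044-119351061: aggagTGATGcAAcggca
Herpud1, chr8:94386312-94386329: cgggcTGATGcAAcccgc
Trib3, chr2:152344034-152344051: ccggcTGATGtAAacctg
The promoter of Chac1 is given whole as the 2-fold gene of this group. Its capitals mark the element, 193 bases before the start and on the strand opposite to the gene.
Chac1 promoter, chr2:119350992-119351291: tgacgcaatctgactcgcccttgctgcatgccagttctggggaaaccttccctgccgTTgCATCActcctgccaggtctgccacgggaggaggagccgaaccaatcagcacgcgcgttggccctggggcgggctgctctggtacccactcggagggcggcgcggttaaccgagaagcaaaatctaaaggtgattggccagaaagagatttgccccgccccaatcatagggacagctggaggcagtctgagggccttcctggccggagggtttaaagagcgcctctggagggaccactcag
The array's own annotation, on the mm9 (NCBI37) assembly and so in other coordinates than these promoters, places the brightest probe of Hspa5 at chr2:34631913-34631972 and that of Xbp1 at chr11:5425816-5425875, both on the plus strand; each is 60 bases long.

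Further probes of the same genes gave a check on single probes. The 41 genes had 81 probes on the array, of which 76 were well above background on both arrays. Of these 76, 69 had a difference above 0 and 27 were at least 1.5-fold higher. At 2-fold 4 were higher and none was lower, and the median of the 76 was 0.53. The 4 include weak Hyou1 probes at 1.07 and 1.48, with unscaled signals between 30.1 and 123. The shares over all probes of the array are not given here. Among 18704 genes read only from probes well above background on both arrays, 59.9% were above 0 and 9.84% were at least 1.5-fold higher. At 2-fold 284 of them were higher and 568 lower. In 24 of the 28 genes with several such probes, all probes had the same sign, against 3479 of 5677 genes on the whole array. The range between the probes of a gene had a median of 0.11 in the 28 genes and 0.25 in the 5677, which include many dimmer genes.

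Wider lists of the same pathways, 144 genes that are not among the 41, were mostly higher in aged cells, by a smaller median. These lists were chosen with earlier results of these data known, so they are no independent support. Under loess the medians of the single lists lay between -0.08 and 0.30. Of the 138 genes of these lists that were above background on at least 1 array, 116 were above 0, against 55.4% of all genes, with a median of 0.42. At least 1.5-fold higher were 29, against 10.7% of all genes, and 2 were 1.5-fold lower, against 10.3%. Most of the genes at 2-fold or more came from a list of further ATF4 targets. Of its 26 genes, 22 were above background and 21 of these were above 0, against 55.4% of all genes, with a median of 0.48. At least 1.5-fold higher were 8, against 10.7% of all genes, and 4 were at least 2-fold higher, against 2.53%.

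Among those 4, Gdf15, Atf5 and Psat1 had larger differences than any of the 41. Gdf15, a stress-induced secreted factor, had levels of 0.10 in young and 2.31 in aged cells, a difference of 2.21 or 4.62-fold. Atf5, a transcription factor of the same family as Atf4, had levels of 3.96 and 5.97, a 4.01-fold difference. Psat1, an enzyme of serine synthesis, had unscaled signals of 1026 and 2404, a difference of 1.60 after scaling, and Pck2, the mitochondrial form of phosphoenolpyruvate carboxykinase, had levels of 3.24 and 4.37, a difference of 1.14. The lowest values of these 4 over the scalings were 1.95, 1.64, 1.35 and 0.88, so Gdf15, Atf5 and Psat1 stayed above 2-fold under all 7. The lowest gene of the list was Vldlr at -0.12, and neither array had Slc7a11, Slc7a3, Stc2 or Fgf21 well above background.

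The other pathway lists held 1 gene at 2-fold or more. At 1.5-fold higher, 10.7% of all genes are the background of the counts that follow. The oligosaccharyltransferase, which attaches sugar chains to new proteins in the ER, had 5 of 12 genes (41.7%) at least 1.5-fold higher and a median of 0.56, between Tusc3 at -0.24 and Rpn1 at 0.86. The COPII coat and its cargo receptors had 3 of 22 (13.6%) at that fold and a median of 0.47, from Sec23a at -0.39 to Kdelr3 at 0.97. The signal recognition particle, signal peptidase and further translocon genes had 2 of 18 (11.1%) and a median of 0.43, from Tram2 at -0.12 to Sec11c at 0.77. Other degradation genes had 4 of 21 (19.0%) and a median of 0.30, from Erlin1 at -0.22 to Ube2j1 at 0.73. Other folding enzymes had 4 of 26 (15.4%) higher and 1 lower with a median of 0.26, and among them Fkbp11, a prolyl isomerase of secretory cells, was 2.07-fold higher with levels of 2.30 and 3.35, while Fkbp10 was the lowest at -0.65. Other regulators of the response had 3 of 17 (17.6%) higher and 1 lower with a median of 0.12, from Bak1, an apoptosis effector, at -0.64 to Wfs1, an ER membrane protein, at 0.74. These counts followed the scaling: the 5 of the oligosaccharyltransferase became 0 under quantile normalization, 0 under loess and 1 with spike-in controls, the 4 of the degradation list became 0 under each of those, and the 2 of the signal recognition particle list did too. As among the 41 genes, the regulators had the lowest median of these lists.

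The mRNA signals of markers of several cell types also differed between the arrays. In RNA from a sorted population, fewer cells of a type and less RNA per cell cannot be told apart. Epithelial markers summed to a relative signal of 505 in young and 564 in aged cells over 7 genes. Krt18 makes up most of this sum. The median difference was 0.07, with 6 of the 7 above 0. Krt19 was above background in young cells only and at least 1.85-fold lower in aged cells. Epcam, the gene of the sorted surface protein, had levels of 2.79 and 2.99, so its mRNA was present in both samples. Acinar markers, whose cells are rich in ER, summed to 7436 and 10450 over 10 genes with a median difference of 0.43, 7 of them above 0. They ranged from Smgc at -1.79 to Bpifa2 at 1.52, and under loess their median was -0.18. Granular duct markers summed to 2281 and 2176 over 7 genes with a median of -0.12, and basal and myoepithelial markers to 67.5 and 75.6 over 7 genes with a median of 0.03. The contractile genes Cnn1 and Myh11 of the last list lay at -2.14 and -1.83, while Trp63, which makes up most of its sum, lay at 0.29. Over the scalings Cnn1 lay between -2.39 and -1.79, and Myh11, with weak unscaled signals of 99.1 and 21.6, between -2.08 and -0.49.

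Plasma cells are a further cell type with much ER. Their markers were low on both arrays, summing to 10.4 and 11.6: 6 of 8 were above background, and Mzb1 and Tnfrsf17 were not. Of the 6, 5 were lower in aged cells, with a median of -0.21. Jchain had a difference of -1.78, Irf4 was above background in young cells only and at least 3.05-fold lower in aged cells, and Pou2af1, which makes up most of the sum, was at 0.56. B cell markers summed to 2.54 and 1.99 with 5 of 6 above background, Cd79a not among them, and 3 of the 5 lower. T cell markers summed to 4.84 and 6.38 with 5 of 6 above background and Cd5 not. Of these 5, 3 were lower in aged cells and the median was -0.07, Cd2 being at -1.28 and Cd3g at least 2.06-fold lower, while Cd3e, which makes up most of the sum, was at 0.56. Macrophage markers summed to 195 and 104 with all 8 lower on the aged array, Lyz2 with a difference of -1.91 from levels of 6.54 and 4.62, and fibroblast markers summed to 18.6 and 8.70 with all 6 lower. Endothelial markers summed to 4.64 and 3.28 with 4 of 6 lower. The part of these shifts in the differences of the folding genes was not tested.

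**Figure D4:**
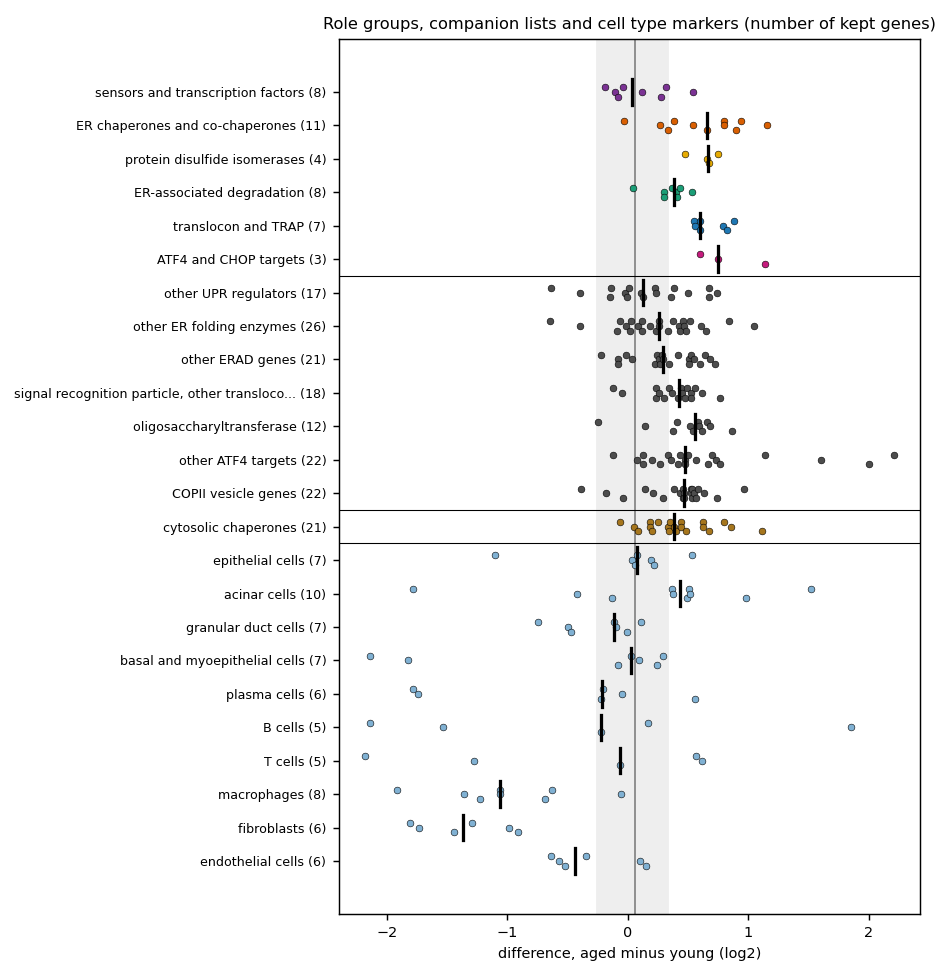
Difference between the ages (aged minus young, log2, x axis) for each gene well above background on at least 1 array, in the 6 role groups of the 41 genes (coloured), the 7 wider pathway lists (dark grey), cytosolic chaperones (brown) and 10 marker lists (light blue), with the number of genes in parentheses, a black bar at each median and the interquartile range of all genes as a grey band. The medians run from 0.75 for the ATF4 and CHOP targets to 0.04 for the sensors; macrophage and fibroblast markers lie at -1.06 and -1.37, and a gene above background on 1 array is drawn at its measured difference.

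**Figure D5:**
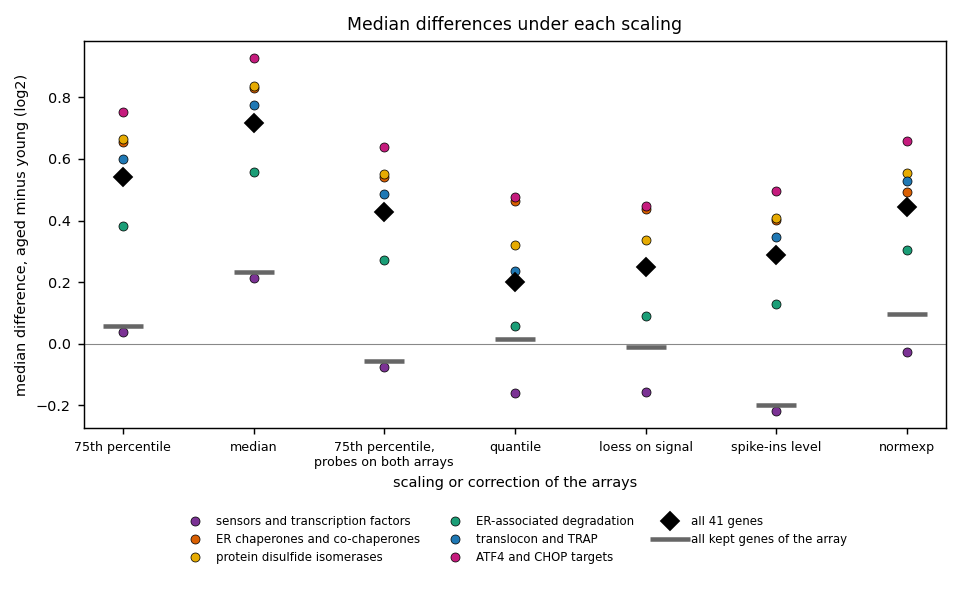
Median difference between the ages (aged minus young, log2, y axis) under 7 scalings or corrections of the arrays (x axis), for the 41 genes together (diamonds), their 6 role groups (coloured circles) and all genes of the array (grey bars). The 41 genes stay above all genes in each column, between 0.20 and 0.72, with the sensors and transcription factors between -0.22 and 0.21.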

How the data were processed

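Total RNA of EpCAM+ submandibular gland epithelial cells was hybridized by the authors to Agilent 8 x 60K mouse arrays, 1 per age on 1 slide. The deposited scanner files hold the intensity of 62976 spots per array, made with Agilent Feature Extraction 12.0.3.1 per the labels, with background subtracted, trends corrected and no scaling between arrays. In the authors' processed table each array's intensities are divided by its own constant.

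The log2 intensity minus that of the array's 75th percentile over 59305 non-control spots was used, as the methods of the study name. Outlier spots (90 and 93) were left out, repeated spots averaged, and each gene was read from its brightest probe, among those well above background in young or aged cells; no spot was saturated. Differences are aged minus young. The number of arrays limits the precision. All 41 genes are named. Of the wider pathway lists and the cytosolic chaperones, genes at 2-fold or more are named, or else the highest and lowest. The further ATF4 targets with a CEBP-ATF match are named as well. Of the marker lists only some genes are named, and not every marker past 2-fold. The genes, lists and motifs were chosen with earlier results of these data known. Alternatives changed the scaling, background correction (normexp, limma 3.58.1, R 4.3.3), filter and probe choice. The steps were tested on simulated data. Python 3.11.15 was used.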

Additional observations from a re-analysis of the deposited data

How the results depend on the processing

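The direction of the medians held for the 41 genes as a set and for the chaperones, isomerases, degradation, translocon and ATF4-CHOP target genes under every alternative run, while their size followed the scaling; 177 summary values moved by less than the set limits and 44 by more. The 41 genes at least 2-fold higher went from 2 to 5 with median centring, to 0 with quantile normalization, 0 with loess and 0 with spike-in controls, and those at least 1.5-fold higher from 17 (10.7% of all genes) to 24 with median centring (19.4% of all genes), 11 with the 75th percentile of probes seen on both arrays (6.32%), 11 with normexp (4.36%), 6 with quantile (8.80%), 5 with loess (8.23%) and 5 with spike-ins (3.63%). Counting every probe, an alternative chosen after seeing the data, gave 4 and 27 of 76 probes, for which the share over all probes is not given here.

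The median of the 41 genes was 0.20 with quantile, 0.25 with loess and 0.29 with spike-ins. In the same order the medians were 0.32, 0.34 and 0.41 for isomerases, 0.059, 0.091 and 0.13 for degradation, 0.24, 0.25 and 0.35 for translocon and TRAP, 0.48, 0.45 and 0.50 for ATF4 and CHOP targets, -0.096, -0.082 and -0.13 for other regulators, 0.20, 0.20 and 0.17 for the signal recognition particle list, 0.30, 0.30 and 0.31 for oligosaccharyltransferase and 0.14, 0.17 and 0.21 for COPII. Chaperones had 0.44 with loess and 0.40 with spike-ins. With quantile, loess and spike-ins, the sensors had -0.16, -0.16 and -0.22, and other folding enzymes 0.074, 0.11 and 0.0035. Other degradation genes had 0.22, 0.20 and 0.041, and other ATF4 targets 0.33, 0.30 and 0.22. The cause of these moves was not tested.

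Median centring moved the median of all genes by 0.17 and spike-ins, from 8 probes, by -0.25. Of all genes called at 2-fold, 33.0% were higher on the aged array (538 against 1094 lower); the share was 48.0% with median centring (800 and 865), 17.9% with spike-ins (350 and 1604) and 42.3% with loess (728 and 992). No paired analysis was possible because there was 1 array per age, and for that reason no array could be left out. The difference between the ages and the difference between these mice cannot be told apart.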

Other observations

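Chaperones of the cytosol, a list of 21 genes chosen after seeing the data, were set beside those of the ER. All 21 were above background on both arrays, and the median was 0.38, against 0.65 for the ER chaperones. A difference above 0 was seen in 20, against 55.4% of all genes, and 6 passed 1.5-fold higher in aged cells, against 10.7%. Hspa1a, an inducible HSP70 of the cytosol, was the only 1 of the 21 at 2-fold or more, with levels of 4.62 in young and 5.74 in aged cells and a difference of 1.12, and Dnajb1 was the lowest at -0.06. Under loess the median of this list was 0.10, against 0.44 for the ER chaperones.

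Of the 26 further ATF4 targets, 21 had a promoter entry. The letters of the CEBP-ATF element were found in 7 of these 21 genes, against 723 of the 17492 protein-coding genes (4.13%). The list was chosen as targets of ATF4, so this share is no independent result. The 7 were Pck2 at 1.14, Gars at 0.36, Aars at 0.13, Nupr1 at 0.07, Vldlr at -0.12, and Slc7a11 and Fgf21, neither well above background. Gdf15, Atf5 and Psat1, the targets with the largest differences, were not among the 7. Whether each of them had a promoter entry is not given here.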
